A study of Mus musculus with 4 samples.

Results

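Contacts that join a promoter to an intergenic partner over 500 kb away were described in bone marrow-derived macrophages (BMDMs) of C57BL/6J mice. Bone marrow was differentiated for 7 days with M-CSF, and the BMDMs were left untreated (basal, 2 samples) or received 20 ng/mL of mouse interleukin-4 (IL-4) for 24 h (2 samples). HiChIP, which joins DNA ends that lie close together in the nucleus and then enriches them for a chromatin mark, used H3K4me3, which marks active promoters, as its target. The list described here was called on the merged reads of the 4 samples and covers both conditions. The authors also called interactions per sample and per condition. Their own comparison found no interaction that differed significantly between basal and IL-4, and they went on with the combined set. From the merged list alone, basal and IL-4-treated BMDMs could not be compared here. It holds no error between replicates, and depth per sample is unknown. For every pair of 5-kb bins the list gives the read pairs observed and the number the authors' model expects, and observed over expected is called the ratio.

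A listed pair was a member when exactly 1 of its bins held a protein-coding TSS (transcription start site), the other bin overlapped no protein-coding gene body, and the bin starts were over 500 kb apart. This rule gave 9631 of the 237102 listed pairs (4.06%, 95% Wilson interval 3.98 to 4.14%), which were 18.7% of the 51540 promoter to intergenic pairs at any distance and 26.0% of the 37080 pairs of any kind over 500 kb. The members joined 3582 promoter bins of 3970 genes to 8569 partner bins and fell in 5501 clusters of neighbouring bin pairs. These intervals reflect only the error of counting, and they are too narrow because adjacent bin pairs depend on each other. The list ends at 1 Mb, so longer contacts were not analysed here.

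Enhancers are stretches of DNA that bind transcription factors and raise transcription of a promoter on the same chromosome, and chromatin folding brings them close to it. An enhancer need not serve the nearest gene, and some act across other genes or across gene deserts. In macrophages many enhancers bind PU.1, the lineage factor encoded by Spi1, together with AP-1 and C/EBP factors, and IL-4 acts through STAT6. CTCF, with cohesin, marks the bases of many chromatin loops, where its motifs often point towards each other.

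Promoter and partner sequences of 3 leading promoters are shown because these promoters carried the most members. The Plk2 promoter bin begins at chr13:110395001, so most of the printed Plk2 promoter lies just outside that bin. Promoter sequences are from RefSeq on GRCm38.p6, from 250 bases before to 50 bases after the start site, and each is printed on the strand of its gene. None of the 3 held a match to the 4 motifs searched on both strands, namely the CTCF core, PU.1 (GAGGAAGT), AP-1 (TGANTCA) and STAT6 (TTCNNNNGAA), so no base is in capitals. Of 32851 RefSeq promoter sequences of this length, 0.557% held the CTCF core, 3.20% PU.1, 7.81% AP-1 and 6.95% STAT6. The Cited2, Plk2 and Rnd3 promoters held 29, 31 and 20 CpG dinucleotides.
Cited2 promoter, chr10:17722978-17723277, plus strand: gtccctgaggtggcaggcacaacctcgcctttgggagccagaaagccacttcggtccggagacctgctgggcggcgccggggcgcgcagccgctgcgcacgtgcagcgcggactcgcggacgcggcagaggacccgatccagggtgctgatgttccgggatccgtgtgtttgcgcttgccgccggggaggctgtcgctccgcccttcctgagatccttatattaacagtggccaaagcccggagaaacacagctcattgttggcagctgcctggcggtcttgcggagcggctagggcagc
Plk2 promoter, chr13:110394794-110395093, plus strand: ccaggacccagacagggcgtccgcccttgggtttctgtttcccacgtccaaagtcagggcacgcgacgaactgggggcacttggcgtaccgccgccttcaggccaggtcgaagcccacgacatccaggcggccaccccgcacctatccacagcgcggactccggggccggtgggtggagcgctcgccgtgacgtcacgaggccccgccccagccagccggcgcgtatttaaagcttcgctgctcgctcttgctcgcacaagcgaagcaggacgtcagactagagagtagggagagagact
Rnd3 promoter, chr2:51149062-51149361, minus strand: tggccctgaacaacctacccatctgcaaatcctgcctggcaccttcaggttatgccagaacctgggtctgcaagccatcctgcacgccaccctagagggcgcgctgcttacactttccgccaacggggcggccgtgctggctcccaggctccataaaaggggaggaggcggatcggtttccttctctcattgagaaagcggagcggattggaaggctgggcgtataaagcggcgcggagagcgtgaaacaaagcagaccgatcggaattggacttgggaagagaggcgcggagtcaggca

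The partner bin with the highest ratio of each of these promoters is shown by its 150 bases with the most motif matches, on the plus strand of GRCm38, with matches in capitals. The Cited2 window, 520 kb from its promoter, held 1 AP-1 match. The Plk2 window, 840 kb from its promoter, held 2 STAT6 matches, and the Rnd3 window, 630 kb away, held 1. Their whole bins held 4, 5 and 5 STAT6 matches, and at least 1 was present in 79.9% of all 265906 intergenic bins of the genome with at least 4500 known bases. A match is a description of the letters, not a binding site.
Cited2 partner, chr10:17200121-17200270, plus strand: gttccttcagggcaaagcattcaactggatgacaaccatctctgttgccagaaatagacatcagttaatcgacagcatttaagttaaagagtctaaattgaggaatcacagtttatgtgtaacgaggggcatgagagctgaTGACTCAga
Plk2 partner, chr13:111236441-111236590, plus strand: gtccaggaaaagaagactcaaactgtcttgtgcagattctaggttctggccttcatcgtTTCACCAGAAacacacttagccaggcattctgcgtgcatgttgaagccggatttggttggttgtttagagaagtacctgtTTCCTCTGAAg
Rnd3 partner, chr2:50515141-50515290, plus strand: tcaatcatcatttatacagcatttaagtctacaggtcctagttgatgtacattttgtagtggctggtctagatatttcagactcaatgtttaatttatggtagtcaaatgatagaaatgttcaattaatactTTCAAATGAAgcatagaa

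Most members passed the promoters of other genes. At least 1 protein-coding TSS lay between the bins in 8605 of the 9631 members (89.3%, 88.7 to 89.9%), with a median of 8 TSSs, quartiles of 3 and 18 and a highest number of 149. In 226 members (2.35%) the only TSSs passed were further start sites of the promoter's own genes. Counted as other genes, 8379 members (87.0%) passed at least 1, 4407 (45.8%) at least 5, 2412 at least 10 and 992 (10.3%) at least 20, and the median was 4 with quartiles of 1 and 10. The share with a TSS between differed widely among chromosomes. It was lowest on chromosome 13, at 67.8% of 707 members, and highest on chromosome 6, at 99.4% of 513 (SD over the 19 chromosomes 8.89 percentage points).

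The promoter was seldom the gene nearest to its partner, and the rule fixes much of this. The promoter bin lies over 500 kb from the partner, so any gene with a closer TSS displaces it. No baseline was computed for the share or the rank. The promoter's own gene had the TSS closest to the centre of the partner bin in 398 members (4.13%, 3.75 to 4.55%), and at the median it was the 11th closest gene, written as rank 11, with quartiles of 6 and 20. Chromosome 12 had the highest share of such nearest genes, 16.7% of 408 members, and chromosomes 7, 17 and 19 had none (SD over chromosomes 5.38 percentage points). Even without any TSS between the bins, the promoter was the nearest in only 338 of 1026 members (32.9%, 30.1 to 35.9%), since a gene on the far side of the partner was then closer. Over all members, the nearest TSS lay 38.9 kb from the partner at the median, within 10 kb in 1837 members (19.1%) and over 100 kb away in 2783 (28.9%). Intergenic partners therefore ranged from bins beside other protein-coding genes to deserts of such genes. They were not free of all genes. The partner overlapped a non-coding gene or pseudogene in 2201 members (22.9%), and a long non-coding RNA gene in 1587 (16.5%).

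**Figure D1:**
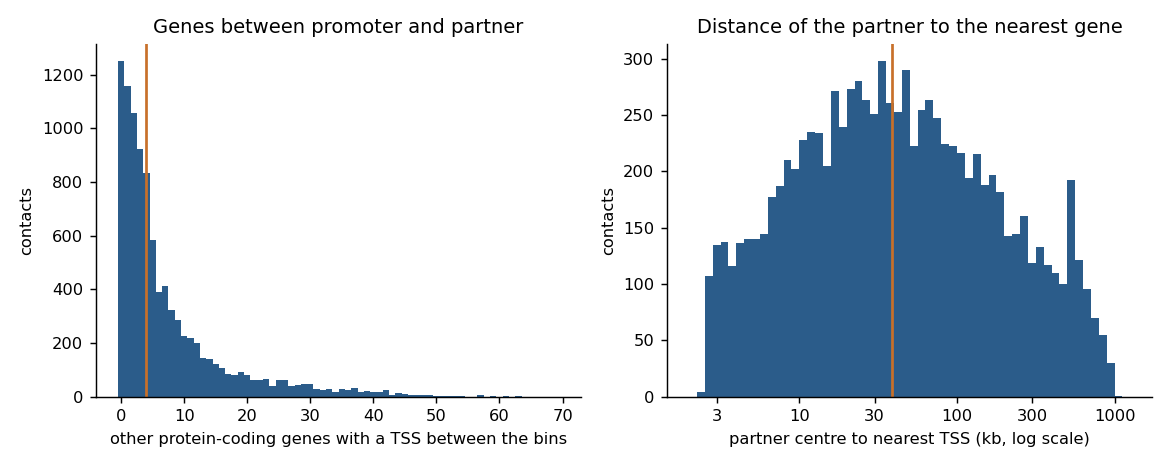
Left, number of members (y axis) by the number of other protein-coding genes with a TSS between the bins (x axis); right, number of members by the distance from the partner bin centre to the nearest protein-coding TSS (x axis, kb, log scale). Orange lines mark the medians of 4 genes and 38.9 kb, and both distributions have long right tails, up to 68 genes and 1001 kb.

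Genes that were passed were mostly in the list themselves. Of the 13736 distinct other genes passed by at least 1 member, 10061 (73.2%, 72.5 to 74.0%) had a listed interaction at their own promoter bin, against 63.2% of all 20720 protein-coding genes on these chromosomes. In 2885 of the 8379 members that passed another gene (34.4%, 33.4 to 35.5%), at least 1 of the passed genes listed an interaction with the same partner bin. Where the promoter was not the nearest gene, the nearest gene had some listed interaction in 7341 of 9233 members (79.5%). It listed the partner bin itself in 848 of the 7903 members (10.7%, 10.1 to 11.4%) in which it lay more than 1 bin from the partner, as pairs under 10 kb apart are not in the list.

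Genes passed were compared with an equal span on the other side of the same promoter bin. The rule keeps the partner bin out of gene bodies but sets no such condition at the far end of the opposite span, so it fixes part of any difference. The comparison was therefore made on the 4975 of 9603 members whose mirrored bin on the other side also overlapped no protein-coding gene body, a restriction chosen after the data were seen. These members passed 7.18 genes on average per chromosome and the opposite spans held 7.74, a difference of -0.56 ± 1.01 genes (SD over 19 chromosomes), lower on 13 of 19 (two-sided exact sign-flip permutation test over chromosomes, p = 0.0271; the smallest p it allows is 3.81e-06). The test takes chromosomes as units and measures the spread between them, not between cultures.

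Without that restriction the gap was wider, and these values are a description with no test. All 9603 members with an opposite span on the chromosome passed 7.62 genes on average per chromosome against 8.92, a difference of -1.30 ± 1.36, and 28 members had no such span. Chromosome 8 had the widest gap, 7.51 genes passed against 11.1 on the other side, and chromosomes 3, 6, 7, 13 and 19 had the opposite sign. Over single members, 56.1% passed fewer genes than the opposite span held, 34.9% more and 9.03% the same number.

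**Figure D2:**
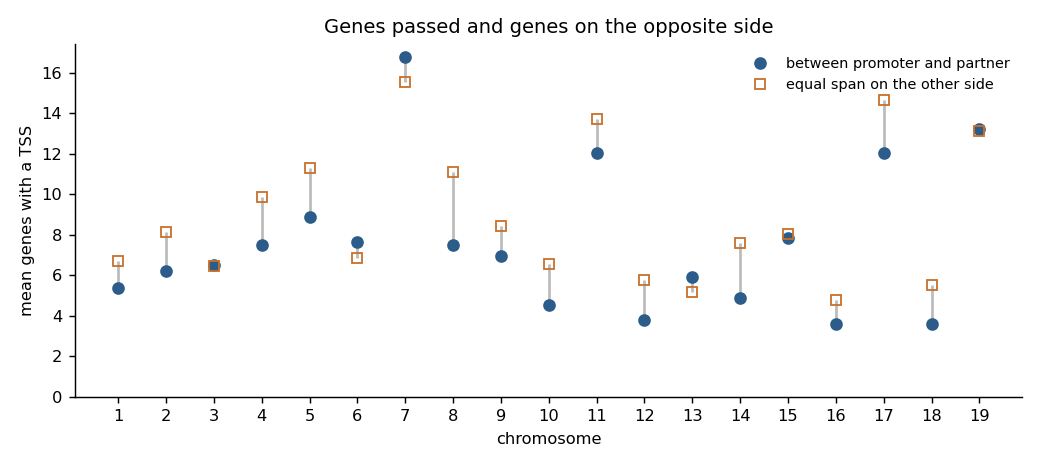
Mean number of protein-coding genes with a TSS (y axis) between promoter and partner (filled circles) and in an equal span on the other side of the same promoter bin (open squares), for each of the 19 autosomes (x axis). The circle lies below the square on 14 chromosomes, with the widest gap on chromosome 8, and the opposite spans are not restricted to ends outside gene bodies.

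The members' counts were small and their ratios high against the whole list, but not against other pairs over 500 kb. The median observed count and ratio were 27 and 3.11 over the whole list, and 14 and 4.31 over all pairs beyond 500 kb. The observed count ranged from 6 to 265 with a median of 15, the expected count had a median of 3.62, and the ratio ranged from 2.02 to 32.8 with a median of 4.18 (quartiles 3.38 and 5.32). A ratio of at least 10 was reached by 199 members (2.07%), against 2.12% of all pairs over 500 kb. Clusters of a single bin pair made up 24.5% of the members and 24.9% of all pairs over 500 kb. Between 500 and 600 kb there were 2804 members with a median observed count of 17, an expected count of 4.45 and a ratio of 3.88, whereas the 1230 members between 900 and 1000 kb had medians of 13, 2.84 and 4.73. The median ratio thus rose with distance while the observed and the expected count both fell. Promoter contacts with gene bodies rose likewise, from 3.68 to 4.50. Only pairs with a false discovery rate below 0.01 are listed, so a lower expected count needs a higher ratio to be called. The part of this limit in the rise was not tested. Just inside the limit, the 151 members at 505 kb had a median ratio of 3.66, and just outside, the 164 promoter to intergenic pairs at 500 kb had 3.62.

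The most similar class was the 13107 promoter contacts over 500 kb whose partner lay in a protein-coding gene body. Members had a median ratio of 4.17 averaged over chromosomes and gene body contacts 4.02, a difference of 0.15 ± 0.15 (SD over 19 chromosomes), and the members were higher on 17 of 19 (two-sided exact sign-flip permutation test, p = 6.64e-04). Chromosomes 4 and 14 had the opposite sign. The median observed count was 15 in both classes, and the median expected count was 3.62 for members and 3.77 for gene body contacts. A lower expected count needs a higher ratio to be listed, and the part of this limit in the difference was not tested. Compared within bands of 100 kb the difference was 0.18 (exact sign-flip permutation p = 0.00531), and among pairs with a ratio of at least 4 it was 0.058 (p = 0.213 by the same exact test).

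**Figure D3:**
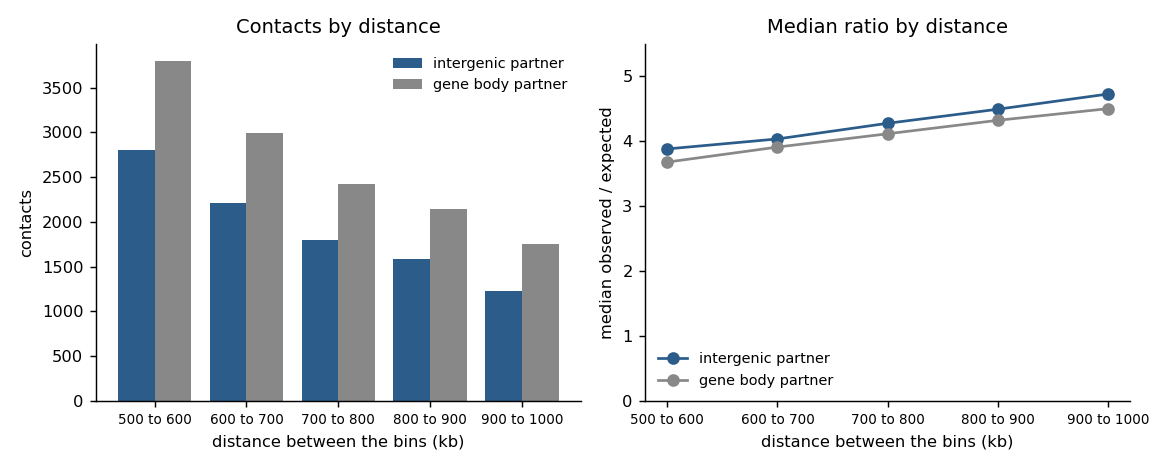
Left, number of contacts (y axis) by distance between the bins (x axis, kb) for promoter contacts with an intergenic partner and with a gene body partner; right, their median ratio of observed to expected (y axis). Numbers fall from 2804 to 1230 members with distance while the median ratio of the members rises from 3.88 to 4.73, above that of gene body partners in each band.

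Ratios were compared by the number of other genes passed, and their medians had no order. The 1252 members that passed no other gene had a median observed count of 18 and a median ratio of 4.33, with 73 of the 199 ratios of at least 10 among them. The 3972 members that passed 1 to 4 genes had a median ratio of 4.14 and 83 such ratios, and the 3415 that passed 5 to 19 had 4.17 and 30. The 992 members that passed 20 or more genes had a median observed count of 14 and a median ratio of 4.23, with 13 such ratios. The highest ratio was 32.8 without other genes between, 21.7 across 1 to 4, 16.7 across 5 to 19 and 14.7 across 20 or more. The nearest TSS lay 301 kb from the partner at the median without other genes between and 10.2 kb across 20 or more. The differences were not tested.

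A few promoters held many of the members. Of the 3582 promoter bins, 1924 (53.7%) had 1 member and 155 (4.33%) had at least 10, and the 15 leading bins together had 727 (7.55%). The leading bins lay in gene-poor regions, with a median of 4 protein-coding genes within 500 kb, against 13 around all member promoter bins and 17 around all 13642 promoter bins with a listed interaction. The rule counts only partners outside protein-coding gene bodies, which favours gene-poor regions, so it fixes part of these differences. Of the 1658 promoter bins with 2 or more members, 1173 (70.7%, 68.5 to 72.9%) had all of them on 1 side. No baseline was computed for this share. Members of 1 bin can be neighbours in 1 cluster, and the rule drops partners in gene bodies, so part of the share is built in. Relative to the direction of transcription, 4494 of 8395 members at bins with genes of 1 strand lay upstream (53.5%), and this share was above 50% on 14 of 19 chromosomes. Most of the member promoter bins, 2804 (78.3%), also had an intergenic partner within 500 kb.

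Cited2, which encodes a regulator that binds the coactivators CBP and p300, led with 79 members at its promoter bin at chr10:17720001-17725000. All 79 lay upstream of Cited2, at 505 to 1000 kb, with observed counts of 10 to 110 (median 27) and ratios of 2.71 to 16.5. No TSS lay between any of these bins and Cited2, which was the nearest gene of all 79. Its highest ratio, 16.5, was at chr10:17200001-17205000 with 65 observed and 3.94 expected counts, and its highest count, 110, was 725 kb away. The contacts formed 6 blocks of partner bins, where gaps of 1 bin were bridged, and 3 clusters. The 79 bin pairs of Cited2 were thus not 79 separate contacts.

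Plk2, a polo-like kinase gene, had 72 members at chr13:110395001-110400000, all downstream and in 6 blocks. Observed counts ranged from 10 to 265 (median 29) and ratios from 2.58 to 32.8. The strongest by ratio of all members was with chr13:111235001-111240000, 840 kb from Plk2, with 172 observed and 5.25 expected counts, 17.5 kb from the TSS of Actbl2. The highest count of all members, 265 with 8.52 expected, was at chr13:110970001-110975000, 575 kb away and 283 kb from any protein-coding TSS. The ratios of Plk2 thus peaked in 2 separate regions, near 575 and 840 kb, and no TSS was passed by 56 of the 72 members. Actbl2 was the nearest gene at both peaks.

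Rnd3, which encodes a small GTPase, had 59 members at chr2:51145001-51150000, of which 56 lay downstream and 3 upstream. Observed counts ranged from 10 to 191 (median 24) and ratios from 2.52 to 27.8. The strongest was with chr2:50515001-50520000, 630 kb away, with 191 observed and 6.86 expected counts. No TSS lay between in 52 of the 59. From the other end of this desert, the promoter of Mmadhc, a gene of cobalamin metabolism, had 15 members, and its strongest, with chr2:51280001-51285000 at 985 kb, passed Rnd3 (49 observed and 2.86 expected counts, ratio 17.2).

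**Figure D4:**
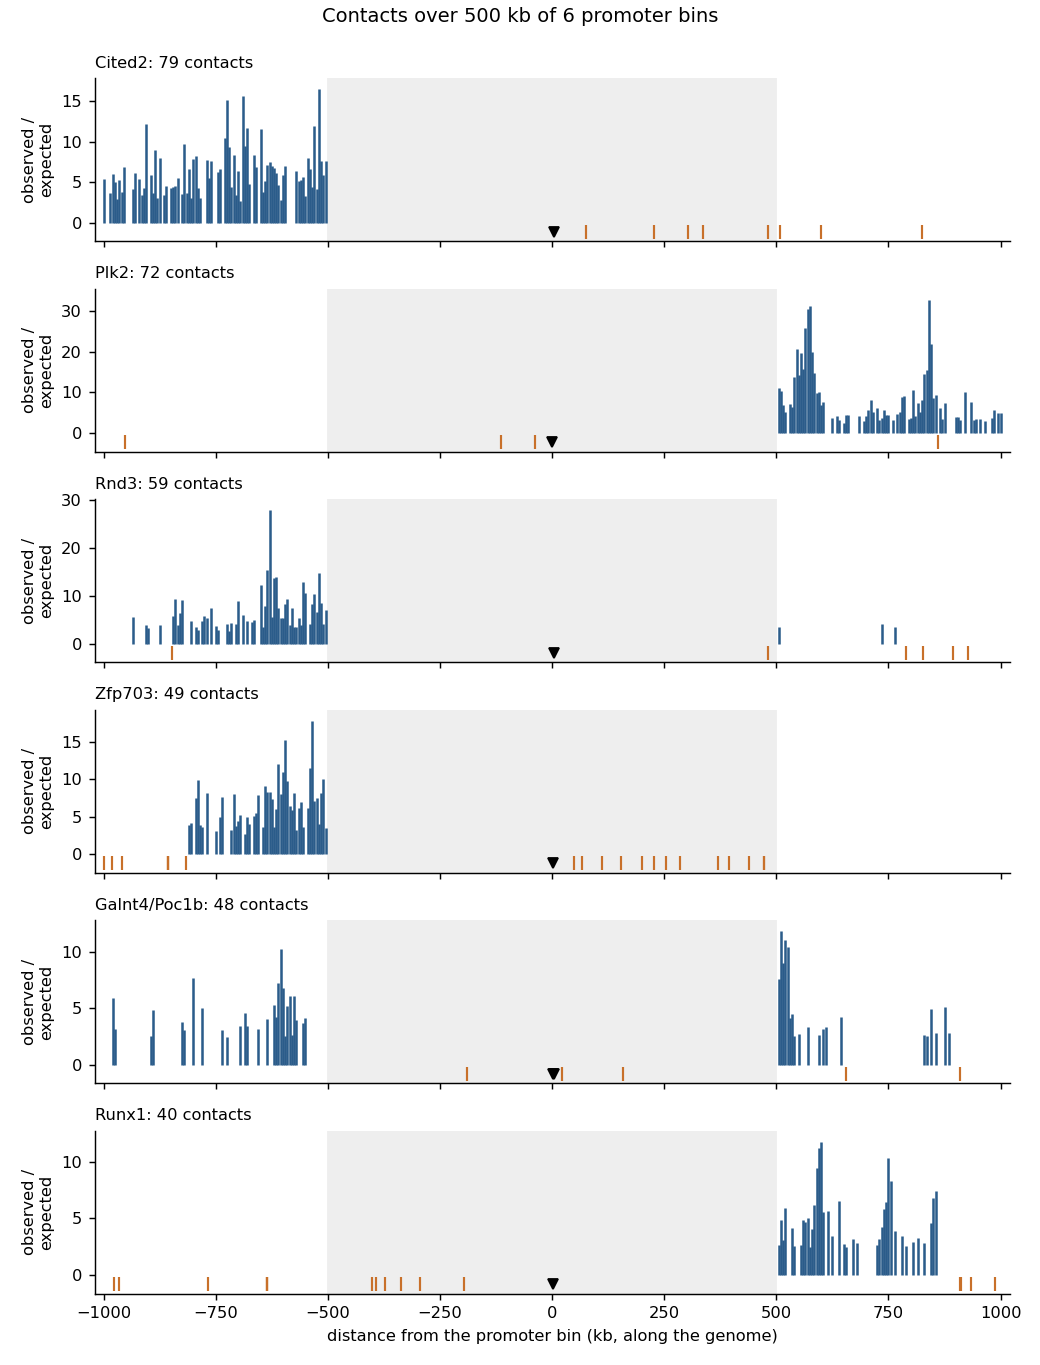
Ratio of observed to expected (y axis) of each member by signed distance of the partner bin from the promoter bin along the genome (x axis, kb) for 6 promoter bins, with black triangles at the gene's own TSS, orange ticks at the TSSs of other protein-coding genes (1 tick a gene) and grey over distances up to 500 kb, which the rule leaves out. Cited2, Plk2, Zfp703 and Runx1 have members on 1 side, and the Plk2 ratios peak at 31.1 and 32.8 near 575 and 840 kb.

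The other leading promoter bins had 36 to 56 members each. Pik3r1, the regulatory subunit gene of PI3-kinase, had 56 at chr13:101765001-101770000, 54 of them upstream, with a highest ratio of 14.6 at 890 kb (69 observed, 4.72 expected). Jarid2, a Polycomb cofactor gene, had 53, all upstream, with a highest ratio of 13.1 at 865 kb (60 observed). Zfp703, a zinc finger gene, had 49, all upstream and without a TSS between, with a highest ratio of 17.8 at 535 kb (106 observed, 5.95 expected). These 3 promoters reached partners almost wholly on 1 side, whereas the bin shared by Galnt4 and Poc1b had 28 members to the left and 20 to the right along the genome, each across at least 1 other TSS.

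Runx1, a Runt factor gene of hematopoiesis, had 40 members at chr16:92695001-92700000, all upstream, with observed counts of 12 to 70 and a highest ratio of 11.8 at 600 kb. Each of them passed 1 TSS, which belonged to Runx1 itself. Id2, an inhibitor of basic helix-loop-helix factors, had 36 upstream members and a highest ratio of 10.7 at 765 kb. Alcam, a cell adhesion gene, had 39 upstream members, was the nearest gene of all 39 and had its highest ratio, 17.8, at 810 kb (72 observed, 4.04 expected). Zfp608 had 45, Zfat 39, Tent5a 38, and Plpbp and the shared bin of Fastkd2 and Mdh1b 37 each. No other gene lay between promoter and partner in any member of Runx1, Id2 or Alcam, whereas the contacts of Tent5a, a poly(A) polymerase gene, each passed 1 TSS.

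High ratios also occurred at promoters with few members. Tsc22d1, a gene induced by TGF-β, had 3 members at 505 to 515 kb in 1 block, with a highest ratio of 21.7 (83 observed, 3.83 expected) across 1 other gene. Rsu1, a Ras suppressor gene, had 10 and a highest ratio of 20.3 at 835 kb (47 observed, 2.32 expected) across 2. Atic, which encodes an enzyme of purine synthesis, had 11 and a highest ratio of 17.6 at 565 kb (102 observed, 5.80 expected). Jun, the AP-1 subunit gene, had 7 members in 1 block at 880 to 910 kb, with a highest ratio of 16.5 (71 observed, 4.31 expected) 34.7 kb from the TSS of Hook1. At Tsc22d1 and Jun the members thus formed 1 block each, whereas those of Cited2 and Plk2 spread over 6 blocks each. The Tsc22d1 members begin at 505 kb, the shortest distance the rule admits, and belong to a cluster of 17 bin pairs. Those of Jun belong to a cluster of 273. The rule leaves out nearer bins and bins in gene bodies, so the width of these contacts cannot be read from the members alone.

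The most genes were passed in gene-dense regions, at observed counts of 6 to 18. Dbp, a clock output factor gene on chromosome 7, had 3 members that passed 126 to 149 TSSs of 59 to 68 genes, with observed counts of 6, 13 and 10 and ratios of 5.06, 3.24 and 4.13. Gramd1a passed 130 TSSs (18 observed counts, ratio 4.59), Rasgrp2 125 (18, ratio 3.26), the bin of Bola2 and Slx1b 120 (18, ratio 5.61) and Mink1 118 (12, ratio 4.84). The observed count was 18 or lower in each of these contacts, against a median of 15 over all members. At the far end of the list, 1000 kb, the highest ratio was 13.2 at U2surp, a splicing factor gene (19 observed, 1.44 expected), followed by Fhl2 (9.09), Ntpcr (8.91), Mbnl1 (7.79) and the bin of Rbm12b2 and Tmem67 (7.71).

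Some partner bins were reached by several promoters. Of the 8569 partner bins, 865 (10.1%) were shared by at least 2 promoter bins, 14 by at least 5, and 1 by 7. The bin at chr15:6080001-6085000 lies 217 kb from the nearest protein-coding TSS. It was listed with Ptger4, a prostaglandin E2 receptor gene (76 observed counts, ratio 13.9, no TSS between), Prkaa1, an AMP kinase subunit gene (28, ratio 10.4), Rpl37 (18, ratio 6.97), Ttc33 (12, ratio 5.83) and Card6 (12, ratio 5.06). These 5 promoters lay 840 to 975 kb away, and the ratio was highest at the promoter closest to the bin. The bin reached by 7 promoters, chr13:21165001-21170000, was listed with 6 promoter bins of replication-dependent histone genes and with Zfp184, at ratios of 2.64 to 5.79. The near-identical copies of the histone genes make the assignment of their reads uncertain.

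Neighbouring promoters shared deserts as well. Zfp703 and Plpbp, 65 kb apart, had 28 partner bins in common, 57.1% of those of Zfp703 and 75.7% of those of Plpbp, and Erlin2 shared 15 with Zfp703, 71.4% of its own. At the bin with the highest Zfp703 ratio, 17.8, Plpbp had a ratio of 7.67 (37 observed), Erlin2 5.82 (26 observed) and Eif4ebp1, a translation repressor gene, 4.09 (17 observed). Prdm1, the gene of the repressor Blimp-1, and Atg5, an autophagy gene 190 kb away, shared 15 bins, which were 93.8% of the 16 of Prdm1 and 53.6% of the 28 of Atg5. The highest ratio of Prdm1 was 18.5 at 540 kb (64 observed), and that of Atg5 was 15.9 at 755 kb (68 observed) with Prdm1 as the 1 gene between. Erlin2, Eif4ebp1, Atg5 and the promoters of the shared chromosome 15 bin were chosen after their values were seen.

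Of the genes the study discusses, most had no contact of this kind. Klf4, a Krüppel-like factor gene, had 2 members and no other interaction. They lay upstream at 580 kb (22 observed and 5.70 expected counts) and 690 kb (101 and 5.30), and the ratio of the latter, 19.1, was the fifth highest among promoter bins, with no TSS between. Klf6 had 1, at 920 kb (48 observed, ratio 7.27, no TSS between), Egr2 2, at 610 and 675 kb (24 and 20 observed, each across 3 genes), Stat6 1, at 810 kb across 37 genes (14 observed, ratio 2.99), and Ripk2 1, at 900 kb across 5 genes (10 observed, ratio 2.97). Arg1, Slc7a2, Msx3, Btbd11, Mmp12, Treml2, Cd36, Pparg, Klf2, Irf4, Spi1 and Cebpb had 0. Slc7a2 had 49 listed interactions of other kinds, Spi1 36 and Cebpb 27, so these promoters were in the list without a called contact of this kind. A contact below the limits of the calls would not be listed.

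Gene groups were read against all genes, of which 19.2% had at least 1 member, or 30.3% of the 13093 genes with any listed interaction. The groups are lists chosen with earlier results of these data known, and some share genes. In the immediate early and growth control list 20 of 46 genes had a member (43.5%), or 48.8% of its 41 genes with any listed interaction, led by Cited2, Plk2 and Id2. In the IL-4 signalling list 12 of 30 had one, or 42.9% of its 28 genes with any listed interaction, led by Pik3r1 with 60 over its 2 promoter bins, followed by Jun with 7 and Smad3 with 3. The macrophage identity list had 9 of 36, or 26.5% of its 34 genes with any listed interaction and so below the 30.3% of all such genes, with Runx1 at 40, Tlr4, the LPS receptor gene, at 15 and Maf at 12. The Tlr4 members lay downstream at 555 to 1000 kb without a TSS between, with a highest ratio of 11.8 at 620 kb (32 observed). The median number per gene was 0 in each of these lists, as over all genes, so a few genes held most members.

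The remaining lists had shares of 4.35% to 20.7% of their genes. IL-4-responsive genes had 7 of 34 (20.6%), with Egr2 at 2 and Fabp5, Mrc1, Plin2, Ripk2, Tfrc and Tgm2 at 1 each, and inflammatory genes had 6 of 36 (16.7%), with Tnfaip3 at 2. Housekeeping genes had 6 of 29 (20.7%), led by Hsp90ab1 and Vps29 with 3 each. Among genes with any listed interaction, the shares were 26.9% for IL-4-responsive, 19.4% for inflammatory and 20.7% for housekeeping genes. Each was below the 30.3% of all such genes. Developmental regulators had 4 of 29 (13.8%), led by Nkx6-1 and Pax6, T cell genes 2 of 21 (9.52%), Il7r and Lck, and neuronal genes 1 of 23 (4.35%), Neurod1. In the last 3 lists only 10, 8 and 11 genes had any listed interaction. Of those with one, 4 of 10 developmental regulators, 2 of 8 T cell genes and 1 of 11 neuronal genes had a member, against 30.3% of all such genes. These numbers are too small to set the 3 lists apart from all genes. The calls were made on pairs with an H3K4me3 peak in at least 1 bin.

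**Figure D5:**
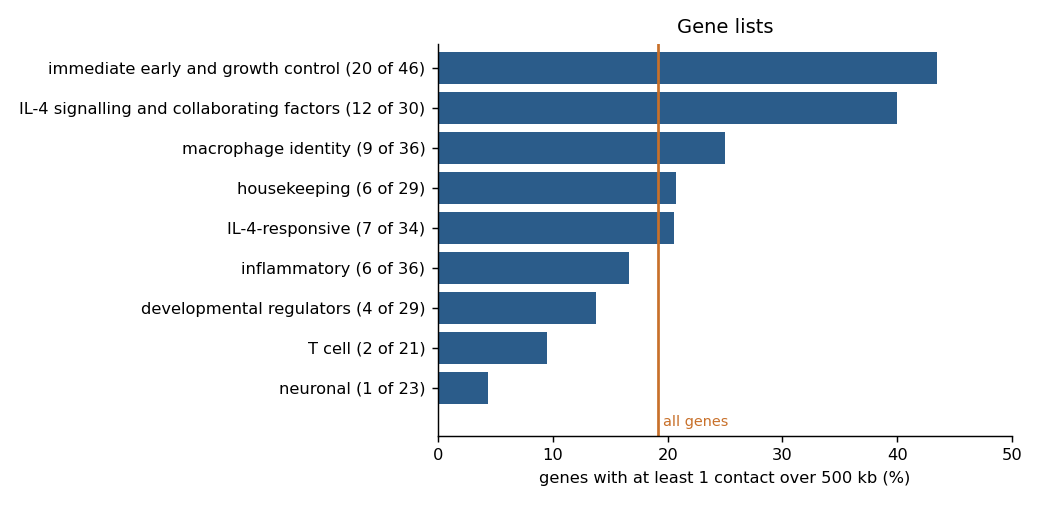
Share of genes with at least 1 contact over 500 kb to an intergenic bin (x axis, %) for 9 gene lists (rows, with the number of genes in parentheses), and the share of all genes as an orange line. The immediate early and growth control list reaches 43.5%, against 19.2% of all genes, and the neuronal list has 4.35%.

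The label of the cells was checked on markers of their own and other lineages by listed interactions of any kind. All 12 macrophage markers had at least 1, with a median of 13.5 and a highest number of 204, against 63.2% of all genes with at least 1. Cx3cr1 and Msr1, which are in the macrophage identity list but not among these markers, had 0. Markers of other lineages were also listed, in 4 of 9 T cell markers (median 0, highest 32), 5 of 8 B cell markers (median 1.5, highest 16), 6 of 8 neutrophil markers (median 2.5, highest 13) and 5 of 7 stromal markers (median 1, highest 26). The B cell, neutrophil and stromal shares were near or above that of all genes, so being listed separates these lineages little. Those at 0 were Cd3e, Cd3d, Cd3g, Cd8a and Zap70 for T cells, Cd79a, Pax5 and Ebf1 for B cells, S100a9 and Ly6g for neutrophils, and Col1a1 and Col1a2 for stromal cells. A long intergenic contact was held by 1 of the 12 macrophage markers, Maf, by 2 of the T cell markers, by 1 of the neutrophil markers and by none of the B cell and stromal markers. Of all genes, 19.2% held one. The part of other cells in the list was not tested.

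Motifs in the partner bins were compared with the intergenic partners within 500 kb of the same promoter bins. Of all 8569 member partner bins, 1979 were also nearer partners and were kept in both sets, which draws the shares together. The CTCF core was in 4.40% of 8563 member partner bins and in 4.65% of 17746 nearer partner bins, against 2.06% of all intergenic bins. Averaged over chromosomes the difference was -0.22 percentage points ± 0.93 (SD, n = 19; two-sided exact sign-flip permutation p = 0.325, Benjamini-Hochberg adjusted over 4 motifs 0.433). PU.1 was in 29.0% and 30.4%, against 27.3% of all intergenic bins, a difference of -1.60 percentage points ± 2.70, lower on 14 of 19 chromosomes (exact p = 0.0192, adjusted 0.0767). AP-1 was in 80.6% and 80.0% (78.6% of all intergenic bins; difference 0.54 ± 2.94, exact p = 0.436, adjusted 0.436), and STAT6 in 77.1% and 76.0% (79.9% of all; 0.73 ± 2.50, exact p = 0.216, adjusted 0.431). No motif passed the adjusted test. The median GC content was 43.2% in the member partner bins, 43.7% in the nearer ones and 40.5% in all intergenic bins, and its part in the shares was not tested.

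CTCF orientation could be read for few members. In 23 members each bin held CTCF core matches in 1 orientation only, and 8 of these were convergent (34.8%, 95% Wilson interval 18.8 to 55.1%), 7 divergent and 8 in the same orientation. Among the nearer promoter to intergenic pairs 58 were convergent, 13 divergent and 64 in the same orientation. None of the promoters named above for number, ratio or genes passed had a convergent pair. Cdyl, which encodes a chromodomain protein, had 1 of the 8 and is shown as an example chosen after its values were seen. Its other oriented members, at 880 kb (ratio 5.30) and 625 kb (ratio 3.74), had matches in the same orientation and higher ratios. The Cdyl promoter bin and a bin 510 kb upstream, the pair shown, had 18 observed and 5.70 expected counts (ratio 3.16). Their core matches, in capitals with 20 bases on each side, point towards each other.
Cdyl partner bin, chr13:35231370-35231421, plus strand: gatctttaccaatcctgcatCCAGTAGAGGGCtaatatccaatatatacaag
Cdyl promoter bin, chr13:35741100-35741151, plus strand: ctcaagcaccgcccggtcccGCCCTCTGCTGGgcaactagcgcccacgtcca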

How the data were processed

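H3K4me3 HiChIP was measured in 2 basal and 2 IL-4-treated samples, grouped by their titles. By the study's methods the authors aligned reads with Bowtie2 to mm10. They ran MAPS at 5000-bp bins, with peaks of H3K4me3 ChIP-seq, joined by bedtools, as anchors. MAPS was run on each sample, on each condition and on the merge of all 4, and the list used here is that of the merge. MAPS models the count of a bin pair from its distance, fragment and sequence properties and enrichment, and tests pairs with a peak in at least 1 bin. The deposited list holds for each pair an observed count, an expected value of the model, the authors' false discovery rate (an adjusted p-value, here below 0.01) and the label and size, in bin pairs, of its cluster. Nothing was normalized further. All ratios were at least 2 and distances 10 kb to 1 Mb, so the list shows only pairs past these limits, and ratios depend on how well the model holds at low expected values. Autosomes only were listed.

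TSSs and gene bodies were from the basic set of GENCODE M21, positions are mm10 counted from 1, and sequence was GRCm38. Distances are between bin starts. Partner to gene distances are from the bin centre. Chromosomes with fewer than 20 entries on either side would have been left out of tests, and none was. The members and lists were chosen with earlier results of these data known. Genes named were, by rule, the 15 promoter bins with the most members, the 10 with the highest ratio, the 5 with the highest count, the 5 whose strongest contact passed the most TSSs, the 5 longest contacts by ratio, the genes the study discusses and the 2 leading genes of each list; exceptions are stated, and a few genes the rule names are not reported here. Of 3968 gene symbols with a member, 3151 were in the RefSeq promoter table. The sign-flip test was tested on simulated data. Depth per sample is unknown, which limits precision to the counts given. Alternatives are listed in the closing section. Scripts ran under Python 3.11.15 (scipy 1.17.1, pandas 2.3.3, numpy 2.4.6, matplotlib 3.10.9).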

Additional observations from a re-analysis of the deposited data

How the results depend on the processing

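No paired analysis was possible because the list is pooled over all 4 samples, and leaving out a replicate was not possible for the same reason. Each of the 8 planned results was recomputed under 9 alternatives, 2 of them under 1 more, and for the genes passed 2 were added after the data were seen. Of these 76 values 52 kept their direction and side of the threshold or their size.

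The difference in genes passed was -1.29 when genes of the promoter bin itself were not counted, -0.55 over genes with a listed interaction of their own and -0.56 (exact p = 0.0271) when the mirrored bin also had to lie outside gene bodies. The other alternatives leave that end free, so their shared sign is no support for the difference. The ratio excess over gene body contacts was lost only at ratios of at least 4 (0.058, exact p = 0.213). The CTCF difference in partner bins was 0.28 percentage points at a false discovery rate below 1e-06, 0.018 without single-pair clusters and 0.77 over 700 kb, and -0.96 (exact p = 0.0272, not adjusted over motifs) with 1 bin pair per cluster, so it had no stable direction.

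The number of members was 2989 at a false discovery rate below 1e-06, 5341 at ratios of at least 4, 4303 with 1 bin pair per cluster and 4615 over 700 kb. Genes with a member numbered 1714 at the stricter rate and 2457 over 700 kb. The share with a TSS between was 83.4% at the stricter rate, 88.2% at ratios of at least 4, 94.1% with 1 pair per cluster, 87.3% without single-pair clusters, 90.3% over 700 kb and 90.1% without the Cited2 promoter bin. The share whose promoter was nearest was 5.82%, 2.32%, 4.83%, 3.01% and 3.34% at the stricter rate, with 1 pair per cluster, without single-pair clusters, over 700 kb and without Cited2, and 5.17% when bins with a TSS up to 2500 bp away were also promoter bins. At the stricter rate 0 of 4 oriented CTCF pairs were convergent (0%), too few to read. The causes were not tested.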
